A study of Homo sapiens with 16 samples.

Results

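Transcripts of 9 chemokine genes were examined in 2 ovarian cancer cell lines treated with the PARP inhibitor olaparib. They are the rows of the count table whose gene symbol is CXCL9, CXCL10, CXCL11, CXCL16, CX3CL1, CCL2, CCL5, CCL20 or CCL28, genes whose proteins attract T cells, natural killer cells and related cells. All 9 were found among the 59428 genes of the table, and 29329 of those genes had at least 1 count in some library. OVCAR3, which has an intact BRCA1 gene, received 7.5 µM olaparib, and UWB1.289, which carries a BRCA1 mutation, received 3.5 µM, each for 96 h, with DMSO as the vehicle control. The doses were the half-maximal inhibitory concentrations found for each line, and the experiment was carried out 4 times, giving 4 groups of 4 libraries. Each BRCA1 state is represented by 1 line, and the lines were also grown in different media, so line, BRCA1 state, dose and medium cannot be told apart. RNA was read as 3′-end tags (QuantSeq), with 5599571 to 7730228 counts in a library, so that 1 count was worth 0.132 to 0.177 CPM (counts scaled to a library of 1000000 counts).

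Chemokines are small secreted proteins that bind G-protein-coupled receptors on leukocytes and direct their movement along a gradient. CXCL9, CXCL10 and CXCL11 share the receptor CXCR3 on activated T cells and natural killer cells and are classical interferon-induced genes. CCL2 binds CCR2 on monocytes and memory T cells, and CCL5 attracts T cells and other leukocytes. CXCL16 and CX3CL1 are made as transmembrane proteins with a chemokine domain on a mucin-like stalk, can be shed by the proteases ADAM10 and ADAM17, and bind CXCR6 and CX3CR1. CCL20 binds CCR6 on Th17 cells and dendritic cell precursors, and CCL28 is a mucosal epithelial chemokine that binds CCR10 and CCR3.

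CXCL9, CXCL10 and CXCL11 lie side by side on the minus strand of chromosome 4, within 40141 bases from 76001275 to 76041415 (GRCh38, GENCODE v44). CXCL10 spans chr4:76021118-76023497. CCL2 (chr17:34255274-34257208, plus strand), CCL5 (chr17:35871491-35880793, minus strand) and CXCL16 (chr17:4733533-4739928, minus strand) share chromosome 17, CX3CL1 lies at chr16:57372477-57385044 (plus strand), CCL20 at chr2:227805739-227817564 (plus strand) and CCL28 at chr5:43376645-43412391 (minus strand). RefSeq promoter entries (GRCh38.p14) were found for 5 of the 9 genes. The 250 bases before the start are shown for the CXCR3 ligands and CCL20, because these carry matches to elements read by interferon- and NF-kB-activated factors. Capitals mark a match on either strand to the interferon-stimulated response element (ISRE, GAAANNGAAA), the gamma-activated site (GAS, TTCNNNGAA) or the NF-kB consensus (kB), and none of the matches overlap.
CXCL9: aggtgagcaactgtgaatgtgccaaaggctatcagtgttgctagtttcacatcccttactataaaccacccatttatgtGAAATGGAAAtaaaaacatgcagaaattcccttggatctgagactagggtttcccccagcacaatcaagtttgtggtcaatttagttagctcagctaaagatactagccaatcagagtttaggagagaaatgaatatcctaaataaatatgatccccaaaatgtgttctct
CXCL10: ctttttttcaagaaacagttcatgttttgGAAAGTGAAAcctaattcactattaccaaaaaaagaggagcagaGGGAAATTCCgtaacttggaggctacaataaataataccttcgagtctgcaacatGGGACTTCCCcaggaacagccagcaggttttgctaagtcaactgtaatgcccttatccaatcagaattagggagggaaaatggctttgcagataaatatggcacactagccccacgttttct
CXCL11: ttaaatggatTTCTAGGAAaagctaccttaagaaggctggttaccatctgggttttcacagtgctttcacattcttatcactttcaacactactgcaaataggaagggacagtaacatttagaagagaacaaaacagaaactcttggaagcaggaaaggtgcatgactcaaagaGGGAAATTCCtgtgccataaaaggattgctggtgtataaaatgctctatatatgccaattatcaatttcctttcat
CCL20: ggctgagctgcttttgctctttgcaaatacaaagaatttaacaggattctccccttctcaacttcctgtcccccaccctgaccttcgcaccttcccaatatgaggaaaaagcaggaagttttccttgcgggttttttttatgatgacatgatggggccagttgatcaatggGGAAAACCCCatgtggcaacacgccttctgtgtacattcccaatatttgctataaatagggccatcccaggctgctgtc

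These windows are chr4:76007510-76007759, chr4:76023498-76023747, chr4:76036071-76036320, all on the minus strand, and chr2:227813592-227813841 on the plus strand. For CXCL11 and CCL20 the RefSeq start lies inside the GENCODE span given above, and so does the window before it. CXCL9 held an ISRE match 171 to 162 bases before its start. CXCL10 held an ISRE match at 221 to 212 bases and 2 kB matches, at 177 to 168 and 122 to 113 bases. CXCL11 held a GAS match at 240 to 232 bases and a kB match at 76 to 67 bases, and CCL20 held a kB match at 79 to 70 bases on the opposite strand. Neither of the CCL28 starts had a match in its window. Among 35116 RefSeq promoters of the same length, 3.02% held an ISRE match, 6.57% a GAS match and 5.21% a kB match, and 0.117% held both ISRE and kB, as CXCL10 did. A match describes letters in the window and not binding.

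**Figure D1:**
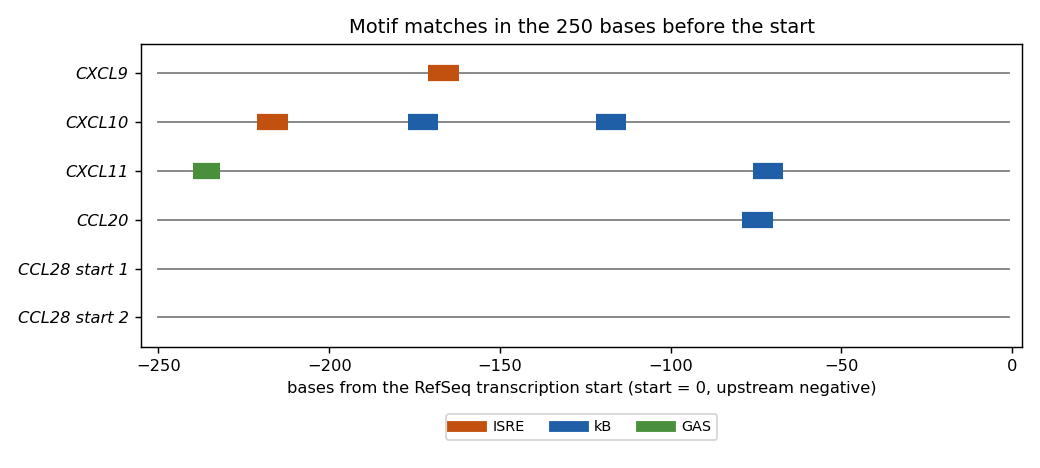
Positions of ISRE, GAS and kB matches in the 250 bases before each RefSeq start, with distance from the start in bases on the x axis and 1 line per start, with both CCL28 starts drawn. CXCL10 carries 3 matches, CXCL11 carries 2, CXCL9 and CCL20 carry 1 each and both CCL28 lines are empty.

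The first comparison asked how PARP inhibition changed these genes in the line with mutated BRCA1. In UWB1.289, CXCL10, CXCL11, CCL5, CCL2 and CX3CL1 were called higher with olaparib, from 58.7-fold for CXCL10 to 2.20-fold for CX3CL1. A gene was called when edgeR's adjusted p was below 0.1, its fold change was above 2 and its average normalised count was above 10. Thus 5 of the 9 chemokines were called higher, 7 of the 9 had enough counts to be tested, and none was called lower, against 1.93% called higher and 0.282% called lower among all 12748 genes tested. CXCL16 and CCL28 rose by less than 2-fold, and 7.77% of all genes rose by adjusted p alone. CXCL10, CXCL11 and CCL5 had 7, 17 and 10 counts over the DMSO libraries and passed the filter on low counts through the olaparib libraries. Genes this low without a rise were not tested, so the share called among tested chemokines is partly set by the filter. The libraries of the 2 treatments did not overlap for 7 of the 9 chemokines, all higher with olaparib, against 7.7% of all genes tested, and CXCL9 and CCL20 fell under the filter on low counts.

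The CXCR3 ligands were near absent in UWB1.289 without drug. CXCL10 had 2, 1, 1 and 3 counts in the 4 DMSO libraries and 86, 106, 110 and 103 counts in the 4 olaparib libraries. Every treated library stood far above every control. The mean level was 0.255 ± 0.114 CPM with DMSO and 16.6 ± 2.05 CPM with olaparib (SD, n = 4), a log2 fold change of 5.88 (edgeR, SE 0.307, adjusted p = 4.73e-12). Because the DMSO counts are few, the ratio of the summed counts was also computed, and it was 62.6 with an exact 95% interval of 30.1 to 157, which covers counting error only. CXCL11 had 3, 6, 0 and 8 counts with DMSO and 44, 41, 57 and 44 with olaparib, again without overlap, and rose by 3.54 on the log2 scale (edgeR, SE 0.396, adjusted p = 1.36e-06). Its mean was 0.626 ± 0.498 CPM with DMSO and 7.59 ± 1.05 CPM with olaparib (SD, n = 4). CXCL9 gave 1, 1, 2 and 0 counts with olaparib and 0 in the 4 DMSO libraries. The groups overlapped at 0 (exact permutation test, two-sided, p = 0.143, n = 4 per group), so no difference was detectable for CXCL9 at this depth.

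The CC chemokines CCL5 and CCL2 rose as well, with more spread between libraries. CCL5 had 3, 4, 1 and 2 counts with DMSO and 44, 14, 36 and 33 with olaparib. The lowest treated library lay above the highest control, although the treated libraries themselves ranged from 14 to 44 counts. The log2 fold change was 3.70 (edgeR, SE 0.457, adjusted p = 5.56e-06), between means of 0.385 ± 0.223 and 5.13 ± 1.99 CPM (SD, n = 4). CCL2 had 5, 25, 15 and 20 counts with DMSO and 25, 45, 56 and 34 with olaparib. Here the groups overlapped, since the lowest treated library was level with the highest control, and the first DMSO library was the lowest of its group. The mean went from 2.48 ± 1.40 to 6.57 ± 2.28 CPM (SD, n = 4), a log2 fold change of 1.41 (edgeR, SE 0.350, adjusted p = 0.0118). Leaving out single libraries moved it between 1.11 and 1.75, with adjusted p up to 0.0601.

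Both transmembrane ligands had over 100 counts in every UWB1.289 library. CX3CL1 had 170, 115, 106 and 147 counts with DMSO and 297, 278, 277 and 236 with olaparib. No treated library fell into the control range. The mean level went from 20.2 ± 3.72 to 44.7 ± 6.16 CPM (SD, n = 4), a log2 fold change of 1.14 (edgeR, SE 0.136, adjusted p = 3.3e-06). CXCL16 had 402, 346, 353 and 443 counts with DMSO and 493, 531, 569 and 585 with olaparib, also without overlap. Its mean rose from 58.2 ± 1.77 to 89.0 ± 5.56 CPM (SD, n = 4), which is 1.53-fold and therefore under the fold limit, with a log2 fold change of 0.62 (edgeR, SE 0.0887, adjusted p = 4.95e-05).

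Of the epithelial chemokines, CCL20 had 1, 1, 1 and 0 counts with DMSO and 5, 41, 18 and 19 with olaparib in UWB1.289. All treated libraries were higher, and they differed widely among themselves. CCL20 was too low for the filter. The ratio of its summed counts, 83 against 3, was 30.0 (exact 95% interval 9.90 to 148), and an exact two-sided permutation test of the CPM values gave p = 0.0286 (n = 4 per group), the smallest that 4 against 4 libraries allow. Within same-numbered pairs CCL20 was higher with olaparib in 4 of 4. The exact permutation p of the pairs was 0.125, the smallest that 4 pairs allow, so that test could not reach 0.05 whatever the counts. CCL28 had 123, 137, 107 and 141 counts with DMSO and 186, 158, 158 and 168 with olaparib, with no overlap, and rose 1.43-fold (log2 fold change 0.51, SE 0.127, edgeR adjusted p = 0.0115), which is below the fold limit.

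**Figure D2:**
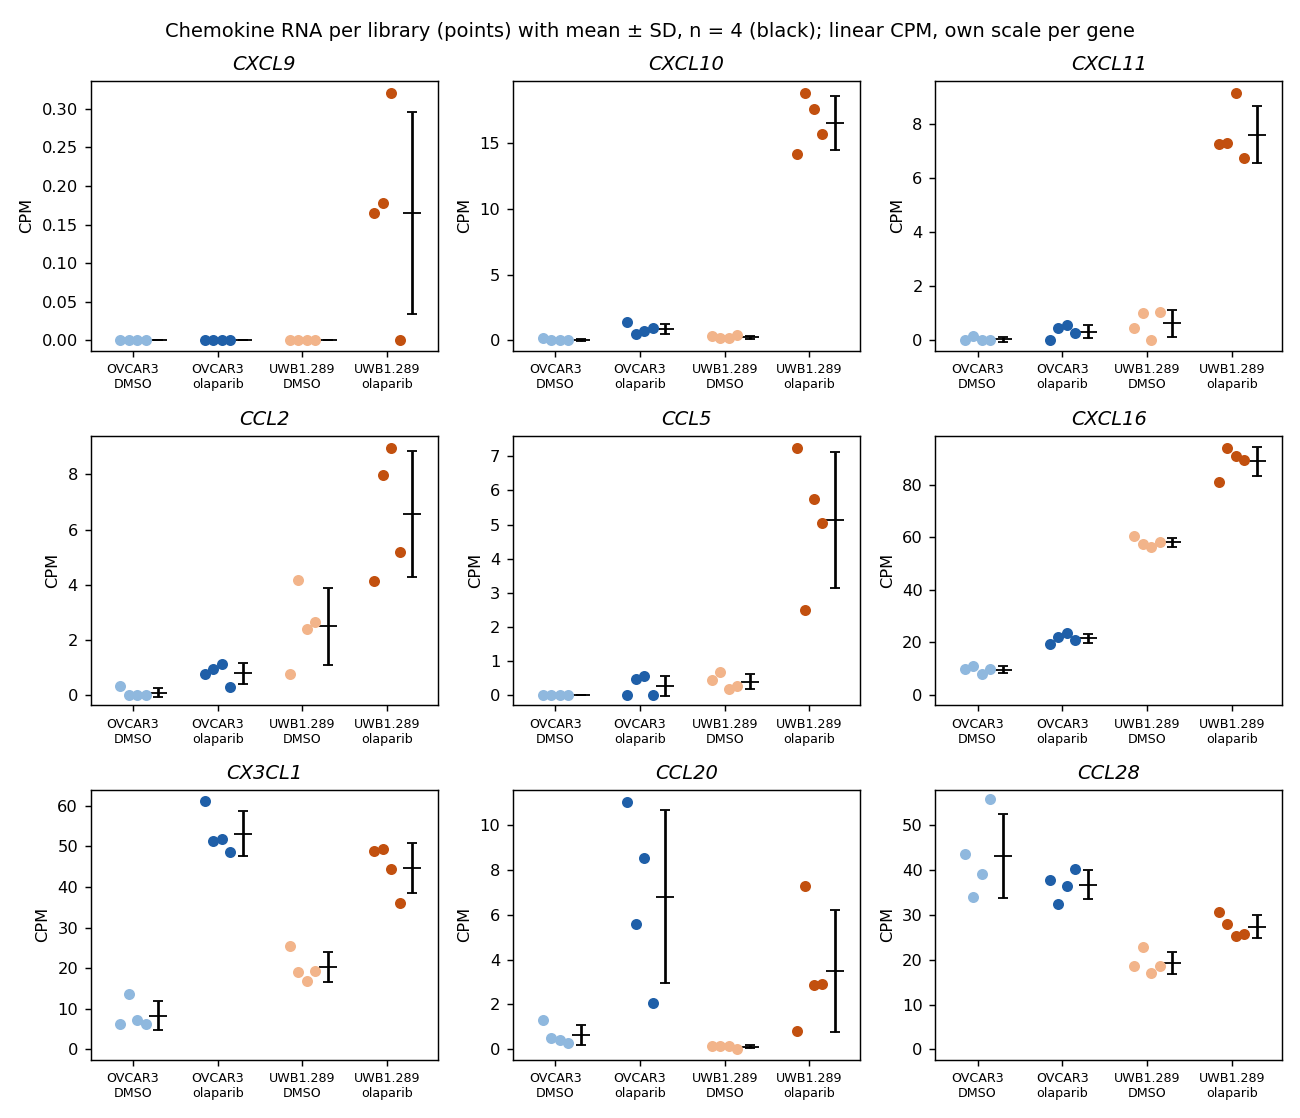
Level of each chemokine in every library, in CPM on a linear axis with its own scale in each panel; coloured points are single libraries of the 4 groups and the black bars beside them are mean ± SD (n = 4). CXCL10, CXCL11 and CCL5 stand out in UWB1.289 with olaparib (means 16.6, 7.59 and 5.13 CPM), CX3CL1 is high in both olaparib groups, and CXCL16 separates the lines as well as the treatments.

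The same question was asked in the line with intact BRCA1. In OVCAR3, CX3CL1, CCL20 and CXCL16 were called higher with olaparib, by 6.48-fold, 10.5-fold and 2.24-fold. CCL28 was tested and not called, and CXCL9, CXCL10, CXCL11, CCL2 and CCL5 had too few counts for the filter. Thus 3 of the 9 chemokines were called higher, of 4 tested, and none lower, against 2.9% called higher and 2.33% called lower among all 13031 genes tested. CCL20, with 16 counts over the DMSO libraries and 182 with olaparib, passed the filter through the olaparib libraries. The libraries did not overlap for 4 of the 9, higher with olaparib, against 12.4% of all genes tested.

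CX3CL1 had 38, 78, 50 and 43 counts in the OVCAR3 DMSO libraries and 394, 329, 365 and 355 with olaparib. The treated libraries were several times above every control, and the second DMSO library was the highest of the controls. The mean level went from 8.32 ± 3.57 to 53.2 ± 5.46 CPM (SD, n = 4), a log2 fold change of 2.70 (edgeR, SE 0.181, adjusted p = 1.31e-09). Without the second DMSO library the log2 fold change was 3.02. CXCL16 had 59, 63, 56 and 69 counts with DMSO and 126, 142, 167 and 152 with olaparib, with no overlap. It rose by 1.16 on the log2 scale (edgeR, SE 0.145, adjusted p = 6.69e-06), from 9.67 ± 1.20 to 21.5 ± 1.80 CPM (SD, n = 4).

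CCL20 had 8, 3, 3 and 2 counts with DMSO and 71, 36, 60 and 15 with olaparib in OVCAR3. The groups did not overlap, and the fourth olaparib library was the lowest of a widely spread group. The mean went from 0.641 ± 0.463 to 6.80 ± 3.86 CPM (SD, n = 4), a log2 fold change of 3.40 (edgeR, SE 0.511, adjusted p = 5.21e-05), which ranged from 3.07 without the first olaparib library to 3.99 without the first DMSO library. CCL28 had 265, 195, 271 and 391 counts with DMSO and 244, 209, 257 and 294 with olaparib. The treated libraries lay within or near the control range, and the log2 fold change was -0.23 with a 95% interval of -0.49 to 0.02 (edgeR adjusted p = 0.215).

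The CXCR3 ligands and the CC chemokines CCL2 and CCL5 stayed at a few counts per library in OVCAR3. CXCL10 had 1, 0, 0 and 0 counts with DMSO and 9, 3, 5 and 7 with olaparib, so that every treated library was above every control. The ratio of the summed counts, 24 against 1, was 22.7 with a wide exact 95% interval of 3.69 to 932, and the exact two-sided permutation test gave p = 0.0286 (n = 4 per group). CCL2 had 2, 0, 0 and 0 counts with DMSO and 5, 6, 8 and 2 with olaparib, a ratio of 9.91 (2.42 to 87.2; exact permutation p = 0.0571). These groups touched at 2 counts. CXCL11 had 0, 1, 0 and 0 against 0, 3, 4 and 2 counts (exact permutation p = 0.143), and CCL5 had 0 throughout against 0, 3, 4 and 0 counts (exact permutation p = 0.429). For both genes the groups overlapped and no difference was detectable at this depth. CXCL9 had 0 counts in all 8 OVCAR3 libraries, so its level in this line was at or under the floor of 3 counts over a group.

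**Figure D3:**
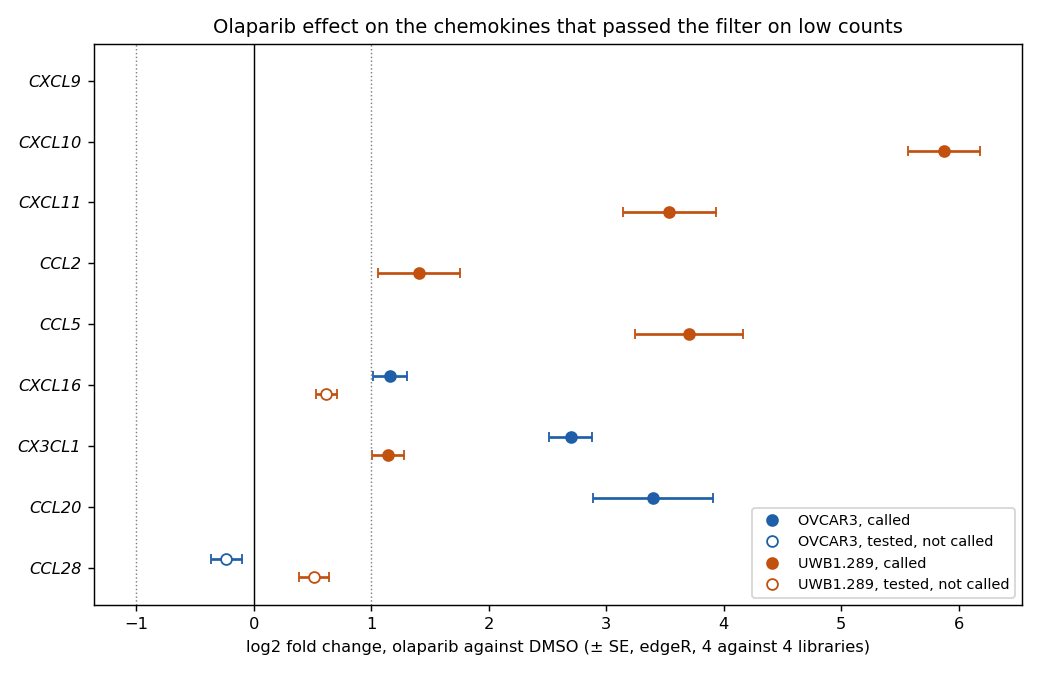
Log2 fold change of each chemokine with olaparib against DMSO, with bars of ± SE from edgeR (4 against 4 libraries); filled points were called, open points were tested and not called, and a line without a point was not tested. Dotted lines mark a 2-fold change; CXCL10 in UWB1.289 lies farthest right at 5.88, and CX3CL1 lies at 2.70 in OVCAR3 and 1.14 in UWB1.289.

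The lines also differed before treatment. With DMSO, CXCL16 was 6.02-fold and CX3CL1 2.46-fold higher in UWB1.289, and CCL28 was higher in OVCAR3. These were the 3 chemokines with enough counts for the test. The 2 called higher in UWB1.289 and the 1 called higher in OVCAR3 compare with 18.7% and 19.7% of all 13366 genes tested, so calls in this comparison were common among all genes. The log2 difference was 2.59 for CXCL16 (edgeR, SE 0.119, adjusted p = 3.36e-18), 1.30 for CX3CL1 (edgeR, SE 0.200, adjusted p = 9.58e-07) and -1.18 for CCL28 (edgeR, SE 0.136, adjusted p = 4.84e-09), each as UWB1.289 minus OVCAR3. The libraries of the lines did not overlap for any of them. Over all 9 chemokines, 4 had all UWB1.289 libraries above those of OVCAR3 and 2 had them below, against 34.5% and 34.9% of all genes tested.

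Among the chemokines under the filter, CCL2 summed to 65 counts over the UWB1.289 DMSO libraries and 2 over those of OVCAR3, a ratio of 31.5 (exact 95% interval 8.38 to 266; exact permutation p = 0.0286). CCL5 had 10 counts in UWB1.289 against 0 in OVCAR3 (exact permutation p = 0.0286). CCL20 went the other way, with 3 counts in UWB1.289 and 16 in OVCAR3 (exact permutation p = 0.0286). For CXCL10 and CXCL11 the DMSO libraries of the lines overlapped (exact permutation p = 0.0571 and 0.143), and CXCL9 had 0 counts in both.

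Over the 4 groups, only CXCL16 of the 9 chemokines had all neighbouring groups apart, in the order UWB1.289 with olaparib, UWB1.289 with DMSO, OVCAR3 with olaparib and OVCAR3 with DMSO. CX3CL1 had the OVCAR3 and UWB1.289 olaparib groups at the top and overlapping, at 53.2 and 44.7 CPM, followed by UWB1.289 with DMSO and then OVCAR3 with DMSO, each apart. CXCL10 was highest in UWB1.289 with olaparib and next in OVCAR3 with olaparib, and the DMSO groups overlapped. CXCL11 and CCL5 had UWB1.289 with olaparib apart from the other three groups, whose neighbours overlapped. For CCL2 every pair of neighbouring groups overlapped. CCL20 had the olaparib groups overlapping at the top. UWB1.289 with olaparib also overlapped OVCAR3 with DMSO for CCL20, and UWB1.289 with DMSO lay apart below. CCL28 was highest in the OVCAR3 groups, which overlapped, followed by UWB1.289 with olaparib and then with DMSO.

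Whether the olaparib response differed between the lines was tested as an interaction over all 16 libraries. CX3CL1 rose more in OVCAR3 than in UWB1.289, with a difference of -1.55 on the log2 scale, as UWB1.289 minus OVCAR3 (edgeR, SE 0.242, adjusted p = 5.95e-05). It was the 1 chemokine called, against 1.66% of 14243 genes called as larger in OVCAR3. CXCL16 also had a larger fold change in OVCAR3, by a difference of -0.55 on the log2 scale (edgeR, SE 0.150, adjusted p = 0.0217). In CPM its rise was larger in UWB1.289, from 58.2 to 89.0 against 9.67 to 21.5 in OVCAR3. CCL28 had a larger change in UWB1.289, by 0.75 (edgeR, SE 0.188, adjusted p = 0.0110). The differences of CXCL16 and CCL28 were under the fold limit. By adjusted p alone, 5.83% of all genes had a larger response in OVCAR3 and 5.09% in UWB1.289. For CXCL10, CXCL11, CCL2, CCL5 and CCL20 the edgeR adjusted p of the difference was 0.710, 0.937, 0.397, 0.727 and 0.587. Summed over the DMSO libraries, CXCL10, CXCL11, CCL2 and CCL5 had between 0 and 2 counts in OVCAR3, and CCL20 had 3 counts in UWB1.289, so 1 of the fold changes behind each of these differences was poorly determined. A larger olaparib response of CXCL10, CXCL11 and CCL5 in UWB1.289 was therefore not shown, although every olaparib library of UWB1.289 was above every one of OVCAR3 for these genes. CXCL9 was not tested.

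The wider chemokine family was read from a list of 35 other chemokines. In OVCAR3, 5 of them had enough counts and all 5 were called higher with olaparib. In UWB1.289, 6 were tested and 5 called higher, and none of the 35 was called lower in either line. In OVCAR3, CXCL8 and CXCL6 had 30 and 11 counts over the DMSO libraries and 602 and 109 with olaparib. They passed the filter on low counts through the olaparib libraries, and genes this low without a rise were not tested. The share called and the median of the tested genes are therefore partly set by the filter. The background of genes called higher is the 2.9% and 1.93% given above, and the median log2 fold change of the tested list members was 3.18 in OVCAR3 and 1.81 in UWB1.289, against -0.01 and 0.00 over all genes. CXCL8 and CXCL1, ligands that attract neutrophils, rose by 4.23 (SE 0.260, adjusted p = 4.64e-10) and 3.48 (SE 0.159, adjusted p = 3.52e-11) on the log2 scale in OVCAR3 and by 1.32 (SE 0.125, adjusted p = 9.86e-08) and 1.68 (SE 0.133, adjusted p = 4.53e-09) in UWB1.289, by edgeR. CXCL5 rose by 1.94 (edgeR, SE 0.142, adjusted p = 1.22e-09) in UWB1.289, and CXCL6 by 3.18 (edgeR, SE 0.444, adjusted p = 2.27e-05) in OVCAR3. CXCL8 and CXCL1 were also the 2 called in the interaction, both larger in OVCAR3, as CX3CL1 was. The lymphoid-tissue chemokines CCL19, CCL21 and CXCL13 had 0 counts in every library.

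**Figure D4:**
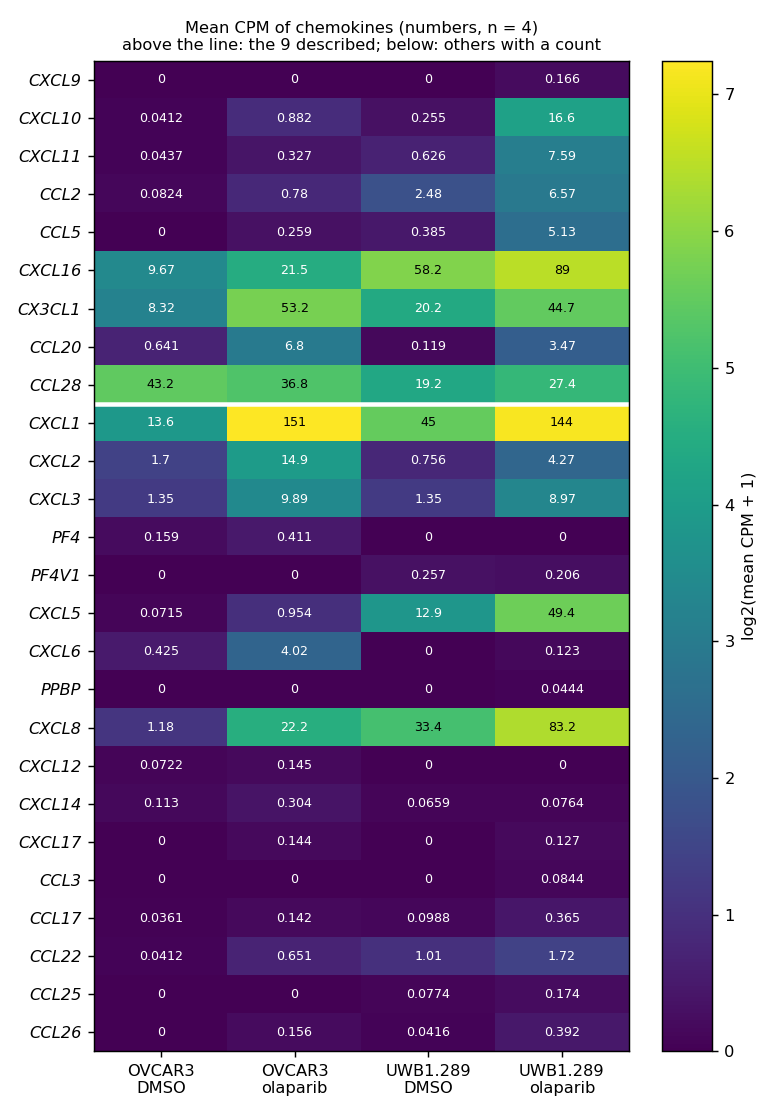
Mean CPM of the 9 chemokines (above the white line) and of the other chemokines with any count (below it) in the 4 groups, with colour giving log2(mean CPM + 1) and the numbers giving mean CPM (n = 4). Rows are to be read along the 4 groups, not against each other; most rows with more than a few CPM brighten from DMSO to olaparib within a line, while CCL28 in OVCAR3 goes from 43.2 to 36.8 CPM.

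Few receptors of these chemokines were detected beyond a few counts. Of 13 receptors and decoy receptors, 1 was tested in OVCAR3 and 2 in UWB1.289. None was called with olaparib, against 5.23% and 2.21% of all genes tested, and so few tested genes can show little. The decoy receptor ACKR2 was at 40.3 and 43.4 CPM in OVCAR3 and at 4.52 and 3.55 CPM in UWB1.289, with DMSO and olaparib in turn, and ACKR3 was at 12.7 and 11.4 CPM in UWB1.289. No other receptor of the list exceeded 39 counts summed over a group. CXCR6, CCR2, CCR6, ACKR1 and ACKR4 had 0 counts in all 16 libraries, and CXCR3 had 7 counts, all in OVCAR3 with olaparib. Between the lines with DMSO, the scavenging receptor ACKR3 was higher in UWB1.289 (log2 difference 5.66, SE 0.371, edgeR adjusted p = 1.84e-14) and ACKR2 was higher in OVCAR3 (log2 difference -3.15, SE 0.185, edgeR adjusted p = 1.34e-15).

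Among 11 transcription factor genes of the interferon and NF-kB pathways, all of them tested, 4 were called higher with olaparib in UWB1.289 and 2 in OVCAR3, against 1.93% and 2.9% of all genes, and none was called lower, against 0.282% and 2.33%. With adjusted p alone, 8 of the 11 rose in UWB1.289 and 10 in OVCAR3, against 7.77% and 15.5% of all genes. In UWB1.289, IRF7, which carries interferon signals, rose by 1.65 in log2 terms (edgeR, SE 0.121, adjusted p = 1.22e-09). RELB, a subunit of the noncanonical NF-kB pathway, rose by 1.50 (edgeR, SE 0.144, adjusted p = 2.08e-07) in OVCAR3 and 1.04 (edgeR, SE 0.104, adjusted p = 2.41e-07) in UWB1.289. IRF3 was called between the lines with DMSO, higher in UWB1.289 (log2 difference 1.89, SE 0.131, edgeR adjusted p = 7.79e-14).

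Of 10 cytokine genes known to induce these chemokines, 2 were tested in OVCAR3 and 4 in UWB1.289. All of those tested were called higher with olaparib, against 2.9% and 1.93% of all genes. In OVCAR3, TNF had 16 counts over the DMSO libraries and 240 with olaparib. It passed the filter on low counts through the olaparib libraries, so the share called is partly set by the filter. TNF rose by 3.79 (edgeR, SE 0.325, adjusted p = 4.37e-08) and LTB by 3.13 (edgeR, SE 0.199, adjusted p = 5.78e-10) on the log2 scale in OVCAR3. In UWB1.289, TNF rose by 1.73 (edgeR, SE 0.170, adjusted p = 1.71e-07), LTB by 1.32 (edgeR, SE 0.109, adjusted p = 9.93e-09), IL1B by 1.42 (edgeR, SE 0.257, adjusted p = 0.000714) and IL1A by 1.07 (edgeR, SE 0.184, adjusted p = 0.000402). TNF and LTB were called as larger in OVCAR3 in the interaction, by -2.06 (edgeR, SE 0.379, adjusted p = 0.000543) and -1.81 (edgeR, SE 0.232, adjusted p = 3.67e-06). The interferon gamma gene IFNG had 0 counts in every library.

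The genes most like each chemokine over the 16 libraries were found by Pearson's r of log2 CPM among 14243 genes, as a description, since the points share 2 lines and 2 treatments. CXCL10 was closest to PLSCR1, IFIT3 and MX1 (r = 0.973, 0.972 and 0.972), all known interferon-stimulated genes. CXCL11 was closest to IFIT1, CCL5 and IFI44 (0.966, 0.959 and 0.956). CCL2 was closest to IL23A, CD40 and DPYSL3 (0.965, 0.961 and 0.958), CXCL16 to PIP4K2A, ICAM1 and HHEX (0.996, 0.994 and 0.990) and CX3CL1 to GPRC5A, CXCL1 and TUBA4A (0.988, 0.977 and 0.959). The likeness was lower for CCL20, whose closest genes were B2M, P4HA2 and VNN2 (0.906, 0.896 and 0.887), and CCL28 was closest to H3C10, EHF and SUFU (0.955, 0.943 and 0.938). Among the 9 chemokines themselves, r was 0.905 for CXCL10 with CXCL11, 0.959 for CXCL11 with CCL5 and 0.931 for CCL2 with CXCL16. It was 0.667 for CX3CL1 with CCL20, 0.022 for CXCL16 with CCL20 and -0.763 for CXCL16 with CCL28.

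Both lines carried the epithelial markers fixed for them, such as EPCAM, KRT7 and PAX8, but WT1 had 0 counts in UWB1.289 with DMSO and 4 with olaparib. The summed level of the 10 epithelial markers was 4896 to 5185 CPM in OVCAR3 with DMSO and 3076 to 3440 CPM with olaparib, and 8108 to 8684 and 6453 to 7872 CPM in UWB1.289. A list of 20 leukocyte markers summed to 2.80 to 3.76 CPM with DMSO and 3.98 to 5.89 CPM with olaparib in OVCAR3, and to 8.83 to 13.5 and 17.1 to 23.2 CPM in UWB1.289, so it moved with the chemokines. The lymphocyte markers CD3G, NKG7, GNLY and MS4A1 were at 0 in all 16 libraries, and CD3D and CD3E had 1 count each in all. In UWB1.289, CD14 had 83 counts over the DMSO libraries and 186 over the olaparib libraries (edgeR adjusted p = 0.00374), and PTPRC had 162 and 195, and what these have to do with the chemokine levels was not tested. Of 9 stromal and endothelial markers, COL3A1 and LUM were at 0 in every library, and the list summed to 24.1 to 31.2 and 33.2 to 40.2 CPM in OVCAR3 and to 49.0 to 70.9 and 33.1 to 40.5 CPM in UWB1.289, with DMSO and olaparib in turn. Other members were detected, with counts summed over a group in the same order. COL1A1 had 630 and 978 counts in OVCAR3. COL1A2 had 1275 and 576, CDH5 100 and 66 and PECAM1 87 and 115 counts in UWB1.289. In bulk RNA, fewer cells with a transcript and less of it per cell cannot be told apart. Some genes overlap the chemokines on the opposite strand, and the sources used here do not give whether counting used the strand: ART3 over CXCL10 and CXCL11 had 5 counts in all 16 libraries, and MED11 and ZMYND15 at the ends of CXCL16 had 176 to 382 and 10 to 52 counts summed over a group.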

How the data were processed

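Total RNA of 16 cultures was made into QuantSeq 3′ libraries. The authors used BBDuk for trimming and STAR 2.7.9a for alignment to hg38, and deposited gene counts from featureCounts 2.0.0 (GENCODE v38); multi-mapping and strand settings are not given in the sources used here. From these counts, edgeR 4.0.16 (quasi-likelihood F test, TMM, filterByExpr, Benjamini-Hochberg over all tested genes) was run in R 4.3.3 for olaparib against DMSO in each line (8 libraries), for the lines with DMSO (8 libraries) and for the interaction (16 libraries). Calls needed adjusted p below 0.1, a fold change above 2 (the limits of the study's methods) and an average count above 10. SE is the log2 fold change over the square root of F. CPM used TMM factors over 16 libraries, and log2 CPM a prior count of 2. Chemokines under the filter were given ratios of summed counts with exact 95% intervals and 11 exact two-sided permutation tests of CPM, unadjusted and, like the paired form in UWB1.289, added after the data were seen. Totals ran from 5599571 to 7730228 counts. None of 24 pairs of replicates was identical. Same-numbered DMSO and olaparib libraries deviated together with r = 0.136 to 0.226 in UWB1.289 and 0.032 to 0.167 in OVCAR3, over 9541 genes. Differently numbered libraries had r up to 0.152 in UWB1.289 and up to 0.135 in OVCAR3. These ranges overlap, but every same-numbered pair within a line had a positive r. The highest r of a DMSO library was with its own number for 3 of 4 in UWB1.289 and 2 of 4 in OVCAR3. These values lean towards pairing by number without settling it. The fits reported have no replicate block, and a block was run in every comparison as an alternative. Named genes were all 9 chemokines, up to 4 called genes of each list with the largest change, and the 3 genes most like each chemokine with an average count above 10. The 9 genes, the lists and the motifs were chosen with earlier results of these data known. Positions are from GENCODE v44 and promoters from RefSeq, both GRCh38. The scripts were tested on simulated data. Some genes of the lists are not reported here.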

Additional observations from a re-analysis of the deposited data

Results flagged for a closer look

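Single libraries stood apart from the other 3 of their group in 5 of 32 groups by Dixon's test, and a further 4 groups at 0 throughout were not examined. The test's chance rate of about 1 in 20 does not apply to 4 of the 5, which are 0 to 2 counts beside groups of equal counts. In OVCAR3 with DMSO, CXCL10 in replicate 1 was at 0.165 CPM (1 count), CXCL11 in replicate 2 at 0.175 CPM (1 count) and CCL2 in replicate 1 at 0.330 CPM (2 counts), with 0 counts in the rest of each group. CX3CL1 in OVCAR3 DMSO replicate 2 was at 13.6 CPM (78 counts), against 6.15 to 7.22 CPM in the other libraries. CCL20 in UWB1.289 DMSO replicate 4 was at 0.0 CPM, against 1 count in each of the others.

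The olaparib effect differed between the lines by the interaction test for CX3CL1 (-1.554 on the log2 scale, UWB1.289 minus OVCAR3), CXCL16 (-0.546) and CCL28 (0.748). CX3CL1 and CXCL16 rose in all 4 treated libraries of both lines, above every DMSO library of the same line. The difference concerns the fold change of the rise.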

How the results depend on the processing

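The counts of chemokines called were 3 (OVCAR3), 5 (UWB1.289), 3 (between lines) and 1 (interaction). Leaving out single libraries gave 3 to 3, 5 to 6, 3 to 3 and 1 to 1. With all 16 libraries in the fit, 5 were called in OVCAR3 (CXCL10 and CCL2 added) and 7 between the lines. The filter and the average count of that fit run over all 16 libraries, so counts from groups outside the comparison carried the added genes past them. Over the OVCAR3 libraries alone, CXCL10 and CCL2 averaged 3.06 and 2.85 counts. CXCL10, CXCL11, CCL2 and CCL20, added between the lines, averaged 0.971 to 8.42 counts over the DMSO libraries. Over all 14243 genes tested, that fit called 743 in OVCAR3, 323 in UWB1.289 and 5186 between the lines. In UWB1.289 that fit called 5, without CCL5, whose average count was 9.39, and with CCL20. With no fold limit, 3 were called in the interaction and 7 in UWB1.289 (CXCL16 and CCL28 added in both), 3 in OVCAR3 and 3 between the lines. The counts over all genes were then 4066 in OVCAR3, 1760 in UWB1.289, 10497 between the lines and 1521 in the interaction. With the fold limit they were 682, 282, 5127 and 521 in the same order. With the replicate block the chemokine counts were 3, 5, 3 and 1, and no call changed. The sign of the CXCL11 interaction turned to -0.66 without OVCAR3 DMSO replicate 2, in a range of -0.66 to 1.36 when single libraries were left out. That of CCL5 turned to 0.59 with DESeq2. It turned to 0.20 and 0.07 without UWB1.289 DMSO replicate 2 and UWB1.289 olaparib replicate 2. Without OVCAR3 olaparib replicate 2 and OVCAR3 olaparib replicate 3 it was 0.23 and 0.58, in a leave-out range of -0.55 to 0.58. Neither gene passed the threshold in any of these. OVCAR3 DMSO replicate 2 held the only CXCL11 count of its group, and CCL5 had 0 counts throughout that group. The cause of the sign changes was not tested. Of the values of single chemokines under alternatives, 397 kept direction and side of the threshold, 4 newly met the call rule, 1 no longer met it and 6 changed sign. Depth limits CXCL9 in both lines and CXCL10, CXCL11, CCL2 and CCL5 in OVCAR3.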

Other observations

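Enzymes that shed or trim chemokines and proteins that bind their transcripts were read from 2 further lists. Of 6 processing genes, 4 were tested in each line. QPCT, a glutaminyl cyclase that modifies the N terminus of CCL2 and CX3CL1, rose in OVCAR3 by 1.49 on the log2 scale (edgeR, SE 0.207, adjusted p = 2.02e-05). Carboxypeptidase M (gene symbol CPM) fell by 1.19 in OVCAR3 (edgeR, SE 0.0995, adjusted p = 3.23e-08). None was called in UWB1.289, against 2.21% of all genes tested. The sheddase gene ADAM10 was lower in UWB1.289 than in OVCAR3 with DMSO by a log2 difference of -1.05 (edgeR, SE 0.0803, adjusted p = 6.82e-13). ADAM17, the other sheddase, was higher there by 0.50 (edgeR, SE 0.0731, adjusted p = 3.87e-07), under the fold limit, and DPP4, which trims CXCR3 ligands, was higher by 2.22 (edgeR, SE 0.402, adjusted p = 1.25e-05).

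Of 6 genes for proteins that set chemokine transcript decay, ZC3H12A (the endonuclease regnase-1) was called higher with olaparib in both lines, by 2.38 (edgeR, SE 0.127, adjusted p = 1.22e-10) in OVCAR3 and 1.55 (edgeR, SE 0.146, adjusted p = 8.07e-08) in UWB1.289 on the log2 scale. ZFP36 (tristetraprolin) was lower and ZFP36L1 higher in UWB1.289 than in OVCAR3 with DMSO, with log2 differences of -2.81 (edgeR, SE 0.311, adjusted p = 2.1e-09) and 1.17 (edgeR, SE 0.0684, adjusted p = 1.16e-15).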
